A study of Mus musculus with 2 samples.

Results

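The insulin-like growth factor (IGF) family was examined in mouse hearts early after myocardial infarction. It comprised 10 genes: the ligand genes Igf1 and Igf2, the receptor genes Igf1r and Igf2r, and the binding protein genes Igfbp2, Igfbp3, Igfbp4, Igfbp5, Igfbp6 and Igfbp7. Members were found as all probe sets whose annotation held 1 of these gene symbols and no other, which gave 28 of the 45101 probe sets of the array and 10 of its 18193 named genes. The hearts came from male C57BL/6J mice, 10 weeks old and of no other stated genotype. In the infarct group the left anterior descending coronary artery was tied off permanently, whereas sham mice had surgery with the vessel kept patent. Hearts were taken 3 days later, and RNA from 3 hearts was mixed per group and hybridised to 1 array. Therefore 2 arrays were compared, no spread between mice was measured, the groups could not be tested against each other, and each difference stands between 1 infarct pool and 1 sham pool.

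Insulin-like growth factors are small secreted proteins that promote growth and survival of cells through the IGF1 receptor, a tyrosine kinase closely related to the insulin receptor. The IGF2 receptor, which also carries mannose 6-phosphate tagged enzymes to lysosomes, takes up and clears IGF2. In tissue and blood, most of the ligand is held by binding proteins, which prolong its life, keep it from the receptor or release it when proteases cut them. In the heart, fibroblasts and macrophages are known sources of IGF1, and cardiomyocytes carry its receptor.

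Within the family, the largest differences between the pools by brightest probe sets were those of binding proteins, and the receptors differed little. Igfbp3 was 3.57-fold higher in infarct hearts and was the only member past 2-fold. Igfbp7 (1.46-fold) and Igf1 (1.39-fold) were higher by less, and Igfbp6 (1.64-fold) and Igfbp5 (1.50-fold, but 1.09-fold by its second probe set) were lower. Averaged over bright probe sets, Igf1 (0.48 on the log2 scale) differed by more than Igfbp5 (-0.35) and Igfbp7 (0.28). Igf2, Igf1r, Igf2r and Igfbp4 differed by less than the SD between probe sets of the same gene, 0.23 on the log2 scale, which was pooled over 5190 genes and covers the probes, not the mice. Igfbp2 was dimmer than the median probe set on both arrays.

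By brightest probe set, 4 binding protein genes differed by at least 0.5 (log2) in either direction, Igfbp5 and Igfbp7 by that probe set alone. Igf1 fell short by its brightest probe set (0.47), although others gave 0.54 and 0.59. The promoters of these 4 binding protein genes are shown. Each is the stretch of 250 bases before an annotated RefSeq start in the assembly GRCm38.p6, 5' to 3' on the strand of the gene. These stretches are chr11:7213924-7214173 (minus strand) for Igfbp3, chr5:77408046-77408295 (minus strand) for Igfbp7, chr1:72874866-72875115 (minus strand) for Igfbp5 and chr15:102143936-102144185 (plus strand) for Igfbp6. Capitals mark matches, on either strand, to any of 6 short motifs that are described after the sequences.
Igfbp3 promoter: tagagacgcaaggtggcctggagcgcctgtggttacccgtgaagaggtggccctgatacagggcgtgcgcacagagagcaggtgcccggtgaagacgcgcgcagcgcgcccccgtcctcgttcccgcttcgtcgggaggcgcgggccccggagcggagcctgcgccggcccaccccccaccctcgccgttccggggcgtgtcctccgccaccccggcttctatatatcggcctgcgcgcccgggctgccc
Igfbp7 promoter: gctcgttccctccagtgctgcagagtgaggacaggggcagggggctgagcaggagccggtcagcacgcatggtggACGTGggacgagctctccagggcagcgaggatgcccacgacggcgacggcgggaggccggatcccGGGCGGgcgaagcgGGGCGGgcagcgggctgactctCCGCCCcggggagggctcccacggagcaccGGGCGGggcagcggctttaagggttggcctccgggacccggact
Igfbp5 promoter: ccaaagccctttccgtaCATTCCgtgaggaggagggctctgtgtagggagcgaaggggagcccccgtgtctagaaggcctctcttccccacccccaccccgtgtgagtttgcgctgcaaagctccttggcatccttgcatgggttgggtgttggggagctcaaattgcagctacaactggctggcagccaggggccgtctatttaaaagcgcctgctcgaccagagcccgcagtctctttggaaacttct
Igfbp6 promoter: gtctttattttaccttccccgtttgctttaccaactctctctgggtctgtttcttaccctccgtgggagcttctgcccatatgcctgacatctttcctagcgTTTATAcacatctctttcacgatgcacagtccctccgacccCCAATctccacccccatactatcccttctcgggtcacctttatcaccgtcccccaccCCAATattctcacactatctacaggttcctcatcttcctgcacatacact

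The motifs searched were the TATA box, with the letters TATAAA, the CCAAT box, the GC box, with the letters GGGCGG, the AP-1 site, with the letters TGANTCA, the binding site of TEAD factors, with the letters GGAATG, and the core of the hypoxia response element, with the letters ACGTG. No motif overlapped another in these 4 stretches. The Igfbp3 stretch held none of these exact letters, and variants of them, such as other runs of T and A, were not counted. The Igfbp7 stretch held 4 GC boxes and 1 hypoxia response core, and the Igfbp5 stretch 1 TEAD site on the opposite strand. The Igfbp6 stretch held 2 CCAAT boxes, and 1 TATA box on the opposite strand at -148 to -143 from the start. Of all 32851 promoter stretches of this length in the table, 12.4% held the TATA box, 33.8% the CCAAT box, 32.7% the GC box, 6.75% the AP-1 site, 12.6% the TEAD site and 16.6% the hypoxia response core. With respect to base composition, the Igfbp3 and Igfbp7 stretches were rich in G and C (73.2% and 74.0%), that of Igfbp5 held 58.8%, and that of Igfbp6 held 49.6%, against a median of 52.4% over all stretches. These matches describe the letters and no binding was measured.

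All values are on the log2 scale of the deposited array values, and differences are infarct minus sham. The values were normalized between the arrays, and the median probe set lay at 6.36 in sham hearts and 6.35 in infarct hearts. A probe set was taken as bright enough if it reached this median on at least 1 array, which held for 24 of the 28 probe sets of the family. The brightest probe set of a gene, by mean value, stood for it, and 9 of the 10 members, all except Igfbp2, were bright enough to be compared, as were 11961 genes in all. Levels were set against those of other probe sets only for this filter, the choice of the brightest and the tissue check below. Otherwise they were not compared, because probes differ in how strongly they bind. The labelled tissue was borne out by 8 cardiomyocyte markers, including Myh6 and Tnnt2, which averaged 14.3 in sham hearts and 14.2 in infarct hearts, near the highest value on the arrays (14.9). In whole hearts, fewer cells of a type and less RNA per cell cannot be told apart.

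The zero of the scale was set by the normalization and other references placed it elsewhere. The 8 housekeeping genes measured, from Tbp (0.0099) to Gusb (1.12), were on average 0.47 higher in infarct hearts. This reference is itself uncertain, since bright probe sets disagreed in sign for Actb (-0.62 and 0.82) and Polr2a (-0.17 and 0.20). Hybridisation controls (foreign transcripts spiked in before hybridisation) differed by -0.32 on average. Transcripts spiked in at an earlier step, the poly-A controls, were 0.057 higher. Taking the housekeeping genes as zero therefore moved every difference by -0.47, and taking the hybridisation controls as zero moved every difference by 0.32. The median of all genes, 0.00 as deposited, moved by the same amounts. Which reference is right was not tested. Differences between 2 members are free of such shifts and are given where they matter.

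**Figure D1:**
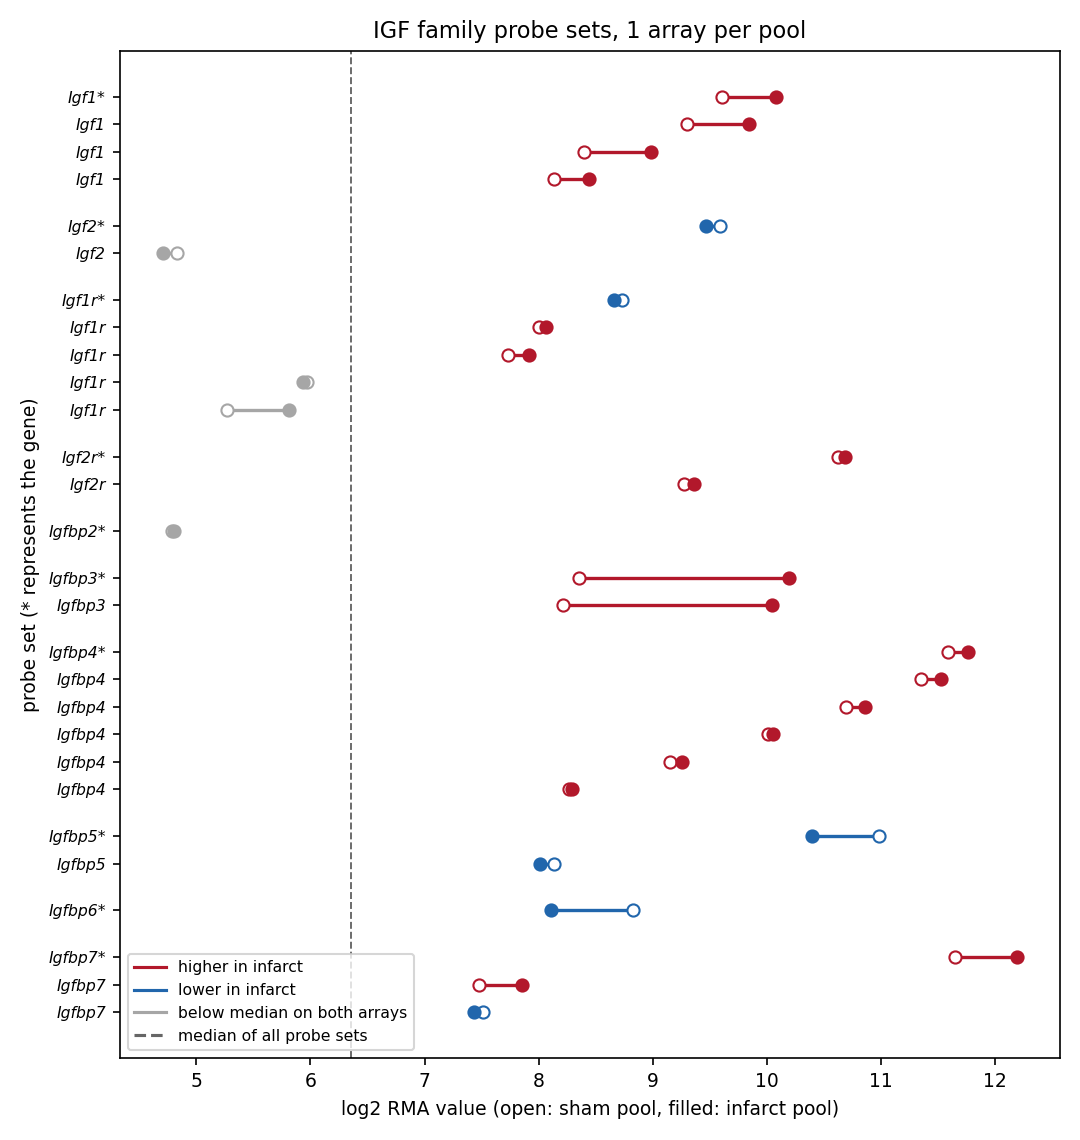
Log2 values, as deposited, of the 28 probe sets of the IGF family. Open circles stand for sham hearts and filled circles for infarct hearts, 1 array each, joined by a line that is red where the infarct value was higher, blue where it was lower and grey where both lay under the array median (dashed). Both probe sets of Igfbp3 show the longest lines, all 4 of Igf1 and all 6 of Igfbp4 lie higher in infarct hearts (Igfbp4 is below 0 with housekeeping genes as zero), and those of Igfbp5 and Igfbp6 lie lower.

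Among the ligands, Igf1, the growth factor through which growth hormone acts on many tissues, was higher in infarct hearts by every probe set. The brightest had a value of 9.61 in sham hearts and 10.08 in infarct hearts, a difference of 0.47. The other 3 probe sets went from 9.30 to 9.84, from 8.40 to 8.98 and from 8.13 to 8.44. Their differences, from 0.31 to 0.59 over all 4 probe sets, averaged 0.48 with an SD of 0.12 between probe sets. Of all genes compared, 13.6% had a difference at least as high. When housekeeping genes set the zero, the brightest probe set stood at 0.0029 and the 4 ran from -0.16 to 0.11, so that Igf1 then differed no more than those genes did on average.

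Igf2, the fetal growth factor of the family, is expressed from the copy inherited from the father in most tissues. It had values of 9.59 in sham hearts and 9.46 in infarct hearts, a difference of -0.12. Its second probe set was dim on both arrays, with 4.83 and 4.71. With hybridisation controls as zero the difference was 0.19. Independently of the zero, Igf1 differed by 0.60 more than Igf2. The antisense transcript Igf2os, which has a probe set of its own, had 6.70 in sham hearts and 6.22 in infarct hearts, and was dimmer than the median in the latter. The corresponding antisense transcript of Igf1 was dim on both arrays.

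The receptor genes differed little. Igf1r, which encodes the signalling receptor, had 8.73 in sham hearts and 8.66 in infarct hearts at its brightest probe set (difference -0.076). Its other bright probe sets went from 8.00 to 8.06 and from 7.73 to 7.91, both slightly higher, so that the sign of Igf1r depended on the probe set. A further 2 of its 5 probe sets were dim on both arrays. Igf2r had 10.62 in sham hearts and 10.68 in infarct hearts, and its second probe set had 9.27 and 9.36, with differences of 0.060 and 0.092. With housekeeping genes as zero, Igf2r stood at -0.41 and Igf1r at -0.55, and with hybridisation controls as zero, at 0.38 and 0.24. Igf1 differed by 0.55 more than Igf1r whichever of these was used.

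Of the high-affinity binding proteins, Igfbp3, which carries most of the IGF in blood, stood apart. Its brightest probe set had 8.36 in sham hearts and 10.19 in infarct hearts, a difference of 1.84 (3.57-fold). The second probe set had 8.21 and 10.04, a difference of 1.83. Both values of the sham pool lay above the array median, so that the fold change does not rest on a dim probe set. The 2 probe sets differed from each other by only 0.0028 (the second can bind several transcripts, as its identifier ends in _s_at), whereas the median gap between probe sets was 0.17 over 3086 genes with 2 bright ones. Only 0.644% of all genes (77 of 11961) had a difference at least as high. With housekeeping genes as zero the difference was 1.36, and with hybridisation controls 2.15, and thus past 2-fold under each scaling. Igfbp1, the neighbouring gene on chromosome 11 and a binding protein made mainly in liver, was dim on both arrays (4.05 in sham hearts and 3.84 in infarct hearts).

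Igfbp5 and Igfbp6 were lower in infarct hearts. Igfbp5, the most conserved of the binding proteins and one that binds to extracellular matrix, had 10.98 in sham hearts and 10.40 in infarct hearts at its brightest probe set, a difference of -0.59. Its second probe set, with 8.13 and 8.01, gave only -0.12. This gap of 0.47 was wide, since 11.2% of the 3086 genes with 2 bright probe sets had one at least as wide, and the size of the Igfbp5 difference is accordingly uncertain. The brighter one is again of the kind that can bind several transcripts.

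Igfbp6, which binds IGF2 more tightly than IGF1, had 8.82 in sham hearts and 8.11 in infarct hearts, a difference of -0.71. It had a single probe set, so that no second one could be set against it. Of all genes compared, 3.81% had a difference at least as low, and 6.26% had one at least as low as that of Igfbp5. Both genes lay below 0 under each scaling and each choice of probe set, when a single choice was altered, but the second probe set of Igfbp5 stood at 0.20 with hybridisation controls as zero. They passed 2-fold only when housekeeping genes set the zero, with -1.06 for Igfbp5 and -1.18 for Igfbp6. Compared with them, Igfbp3 differed by 2.42 more than Igfbp5 and by 2.55 more than Igfbp6 by brightest probe sets, whichever reference set the zero. The contrast with Igfbp5 is smaller by its second probe set (-0.12).

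Igfbp4, which inhibits IGF until the protease PAPP-A cuts it, had 6 bright probe sets, more than any other member. The brightest had 11.58 in sham hearts and 11.76 in infarct hearts. All 6 were higher in infarct hearts, by 0.019 to 0.18, a closer range than that of most genes with 6 bright probe sets, whose median gap was 0.43 (65 genes). Probe sets of a gene read the same pool and are no replicates. With housekeeping genes as zero, Igfbp4 stood at -0.29. Igfbp2, a binding protein abundant in fetal tissue and in the nervous system, had 4.79 in sham hearts and 4.81 in infarct hearts, both below the median, and is not counted among the genes compared. It lies beside Igfbp5 on chromosome 1.

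Igfbp7, a relative that binds IGF weakly and is found in blood vessel walls and extracellular matrix, had 11.64 in sham hearts and 12.19 in infarct hearts at its brightest probe set, which makes a difference of 0.55 (1.46-fold). The remaining probe sets went from 7.47 to 7.85 and from 7.51 to 7.43. The 3 differences thus ran from -0.083 to 0.55, and 10.6% of the 1317 genes with 3 bright probe sets had a gap at least as wide. Averaged over its probe sets, Igfbp7 differed by 0.28, and with housekeeping genes as zero its brightest probe set stood at 0.075. Of all genes compared, 11.2% had a difference at least as high as that of the brightest probe set.

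Counted over the family, 1 of the 9 members compared was higher by 2-fold or more in infarct hearts, against 3.73% of all genes, and 0 were lower by as much, against 1.26% of all genes. At a smaller difference of 0.5 (1.41-fold), 2 of 9 were higher (Igfbp3 and Igfbp7), where the share of all genes was 12.7%, and 2 of 9 were lower (Igfbp5 and Igfbp6), where it was 8.72%. With only 9 genes such shares are coarse, and nothing particular to the family is read from them. The median difference of the 9 members was 0.060, next to 0.00 for all genes, and 5 of 9 lay above 0, next to 49.5% of all genes. As a group, the family was therefore placed near the middle of all genes, with single binding proteins towards either end.

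**Figure D2:**
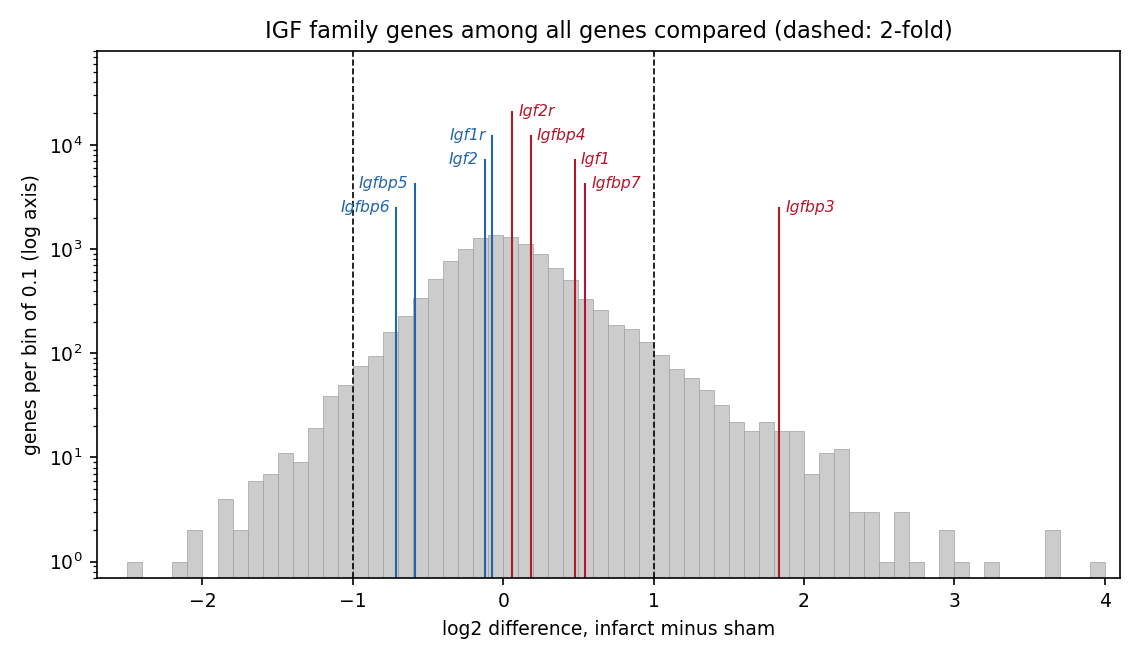
Histogram of the log2 difference (infarct minus sham) of the 11961 genes compared, in bins of 0.1 with a logarithmic vertical axis, and the 9 bright members of the IGF family as lines (red above 0, blue below 0, line height has no meaning). Igfbp3 (1.84) lies in the upper tail beyond the dashed 2-fold line, Igfbp6 (-0.71) and Igfbp5 (-0.59) lie on the lower slope, and Igf2, Igf1r and Igf2r lie at the centre.

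The order of the members did not depend on how the arrays were scaled, but the side of 0 did for some. By brightest probe sets, Igf1, Igfbp3 and Igfbp7 lay above 0 under the 6 other scalings tried, and Igfbp5 and Igfbp6 lay below 0. In contrast, Igfbp4 and Igf2r were on the lower side of 0 when housekeeping genes set the zero, and Igf2 and Igf1r were on the upper side when hybridisation controls did. Accordingly, 3 of 9 members lay above 0 under the former and 7 of 9 under the latter, while 13.8% and 81.9% of all genes did. These shares are the background of every count above 0 given below with these zeros. Other bright probe sets of a member could lie on the other side of 0 from its brightest. With housekeeping genes as zero, this held for Igf1 (-0.16) and Igfbp7 (-0.095 and -0.55). With hybridisation controls as zero, it held for Igfbp5 (0.20). Of the 11961 genes, 151 were higher and 949 lower by 2-fold with housekeeping genes as zero. With hybridisation controls as zero, 962 were higher and 40 lower by as much.

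**Figure D3:**
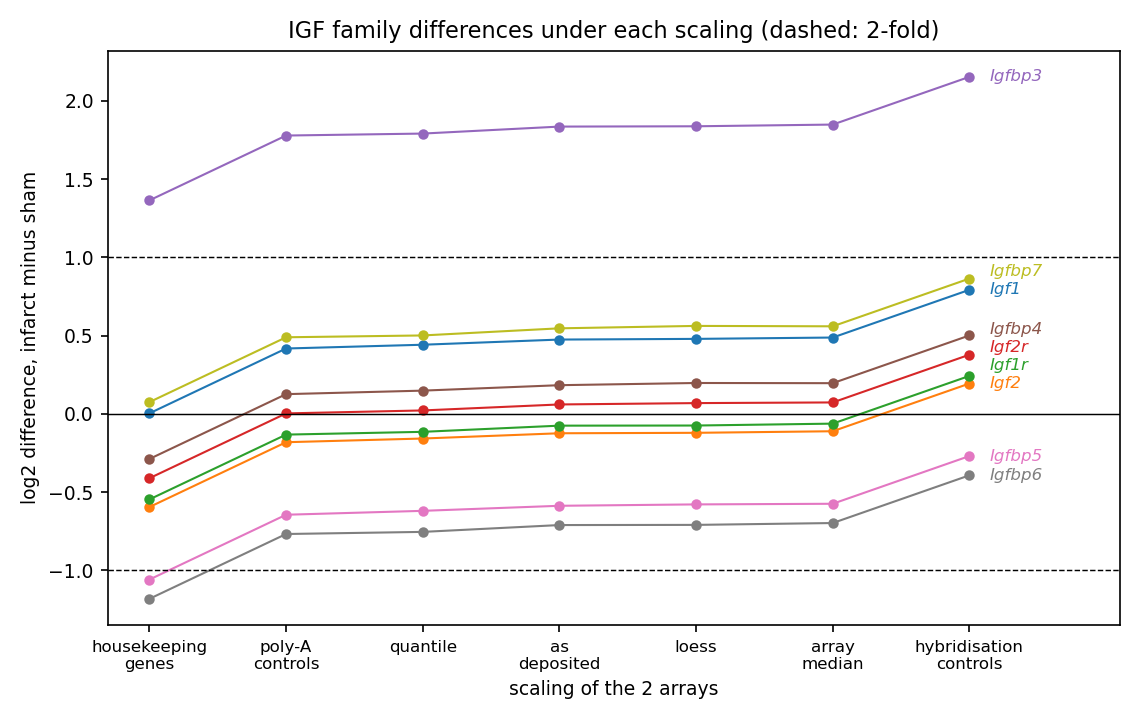
Log2 difference (infarct minus sham) of the 9 bright IGF family genes under 7 scalings of the 2 arrays, with points of a gene joined and dashed lines at 2-fold. Igfbp3 stays above 2-fold throughout (1.36 to 2.15), whereas Igf2, Igf1r, Igf2r and Igfbp4 cross 0 between the scalings by housekeeping genes and by hybridisation controls.

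Beyond the family, genes listed for proteases of IGF binding proteins and for their inhibitors were next examined. Of 14 listed genes, 10 were bright enough and 6 lay above 0. Past 2-fold towards infarct were 3, a direction and size that 3.73% of all genes had. The list was chosen with earlier results of these data known, so this share is no test of it. Of the 3, Adam12, a metalloprotease known to cut IGFBP3 and IGFBP5, stood at 1.47 (7.67 in sham hearts and 9.14 in infarct hearts). Adamts1 stood at 1.34 (8.54 and 9.88). Prss23, a secreted serine protease for which no cut of these binding proteins is claimed here, stood at 1.15 (10.08 and 11.23). No gene of the list was lower by 2-fold, and the median was 0.43 with Prss23 counted. Without Prss23 the middle gene is Ctsd (0.26). Pappa, which encodes the protease of IGFBP4, had 6.50 in sham hearts and 7.09 in infarct hearts (difference 0.60), and its inhibitor gene Stc1 had 6.41 and 7.23 (0.82). The sham values of Pappa and Stc1 lay close to the array median, which makes their differences uncertain. The second inhibitor gene, Stc2, stood at -0.33. The lowest of the list was the serine protease gene Htra3 at -0.72, while its relative Htra1 stood at -0.061. With housekeeping genes as zero the list had a median of -0.043 and 5 genes above 0. None was then higher by 2-fold, with Adam12 at 0.99, Adamts1 at 0.87 and Prss23 at 0.68, and Htra3 was past 2-fold in the other direction (-1.19).

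Other genes of the IGF and insulin system lay on both sides of 0. Of the 6 bright enough, 5 lay below 0, with a median of -0.16, and 0 passed 2-fold. Of these 5, Igfals, Igfbpl1 and Ins2 lay within the SD between probe sets. Insr and Kazald1 passed 2-fold with housekeeping genes as zero. With hybridisation controls as zero, 4 of the 6 lay above 0, with a median of 0.15. The lowest was the insulin receptor gene Insr, which had 10.57 in sham hearts and 9.84 in infarct hearts (difference -0.72, against -0.076 for its relative Igf1r). The highest was Sorl1 at 0.32, a sorting receptor gene whose second bright probe set gave -0.15. Igfals, which encodes the subunit that holds IGF and IGFBP3 in the large complex of blood, stood at -0.15 with values close to the median (6.99 and 6.85). The IGF2 mRNA binding protein genes Igf2bp1 (-0.24) and Igf2bp3 (-0.043) lay slightly below 0, and both were above it with hybridisation controls as zero.

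Genes of the signalling chain inside the cell lay on both sides of 0. Of 28 bright genes listed for IGF1 receptor signalling, 11 lay above 0 and 0 passed 2-fold in either direction, with a median of -0.14. Hybridisation controls as zero gave 17 above 0 and a median of 0.18. Housekeeping genes as zero gave 1 above 0, and Grb14 (-1.24), Foxo4 (-1.19), Foxo3 (-1.16) and Foxo1 (-1.09) then passed 2-fold. Of all genes, 13.8% lay above 0 with that zero, and 949 of 11961 were lower by 2-fold. The lowest was Grb14, an adaptor that inhibits the insulin receptor, at -0.77 (11.74 in sham hearts and 10.96 in infarct hearts). The highest was Ptpn1, a phosphatase gene of insulin and IGF receptors, at 0.66. Foxo4 (-0.72), Foxo3 (-0.69) and Foxo1 (-0.62), transcription factor genes whose proteins are held out of the nucleus by AKT, were among the lowest by their brightest probe sets and are named for their role after their values were seen. Other bright probe sets gave only -0.16 for Foxo4 and -0.21 for Foxo1, less than the SD between probe sets, whereas both of Foxo3 were alike (-0.69 and -0.68). The docking protein genes Irs1 and Irs2 stood at -0.31 and -0.022, and the kinase genes Akt1 and Akt2 at 0.22 and -0.41.

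Genes known as FOXO targets had the lowest median of the pathway lists, -0.42 over 13 genes. Of the 13, 1 lay above 0, and 2 were lower by 2-fold or more, against 1.26% of all genes. The list was chosen with earlier results of these data known, so this share is no test of it. With hybridisation controls as zero, 4 lay above 0, the median was -0.10 and 0 passed 2-fold. With housekeeping genes as zero, Fbxo32, Sesn1, Txnip and Pdk4 were added, which gave 6 past 2-fold, against 949 of all 11961 genes. Those past 2-fold were Klf15, a transcription factor gene of muscle metabolism, at -1.10 (9.63 in sham hearts and 8.52 in infarct hearts), and Gadd45a, a stress response gene, at -1.02 (8.93 and 7.90). The highest was Bcl6, a repressor gene, at 0.33. Many of these genes have other regulators, and FOXO activity was not measured.

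In the growth hormone axis, which drives Igf1 in liver and other tissues, 3 of 6 bright genes lay above 0 and the median was -0.20, or 0.11 with hybridisation controls as zero. The receptor gene Ghr had 11.58 in sham hearts and 10.92 in infarct hearts (difference -0.66). Stat5a was lowest (-0.70), and Cish, a feedback inhibitor gene, was highest (0.49). None passed 2-fold as deposited, but Stat5a (-1.17) and Ghr (-1.13) did with housekeeping genes as zero. Hence Igf1, at 0.47, and Ghr lay on opposite sides of 0 in the same pools, with the former at 0.0029 when housekeeping genes set the zero.

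Igf2 and Igf2r are imprinted, and other imprinted genes of fetal growth were set beside them. Of the 10 bright genes, 8 lay above 0 (4 with housekeeping genes as zero), with a median of 0.35. Mest, a gene expressed from the paternal copy, was highest at 2.25 (8.04 in sham hearts and 10.28 in infarct hearts), and Cdkn1c, a cell cycle inhibitor gene expressed from the maternal copy, was lowest at -1.04 (8.32 and 7.28). Each of these rests on 1 probe set, and Cdkn1c was no longer past 2-fold with hybridisation controls as zero. Igf2, at -0.12, resembled neither.

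For the lysosomal sorting role of the IGF2 receptor, 8 genes of the mannose 6-phosphate pathway and of IGF2R ligands were bright enough. Of these, 7 lay above 0 (3 with housekeeping genes as zero), with a median of 0.37. Plaur, the urokinase receptor gene, was highest at 1.04 (7.09 in sham hearts and 8.14 in infarct hearts), but at 0.57 with housekeeping genes as zero. Gnptg, a subunit gene of the enzyme that makes the mannose 6-phosphate tag, was lowest at -0.30. M6pr, which encodes the smaller mannose 6-phosphate receptor, stood at 0.45, against 0.060 for Igf2r.

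**Figure D4:**
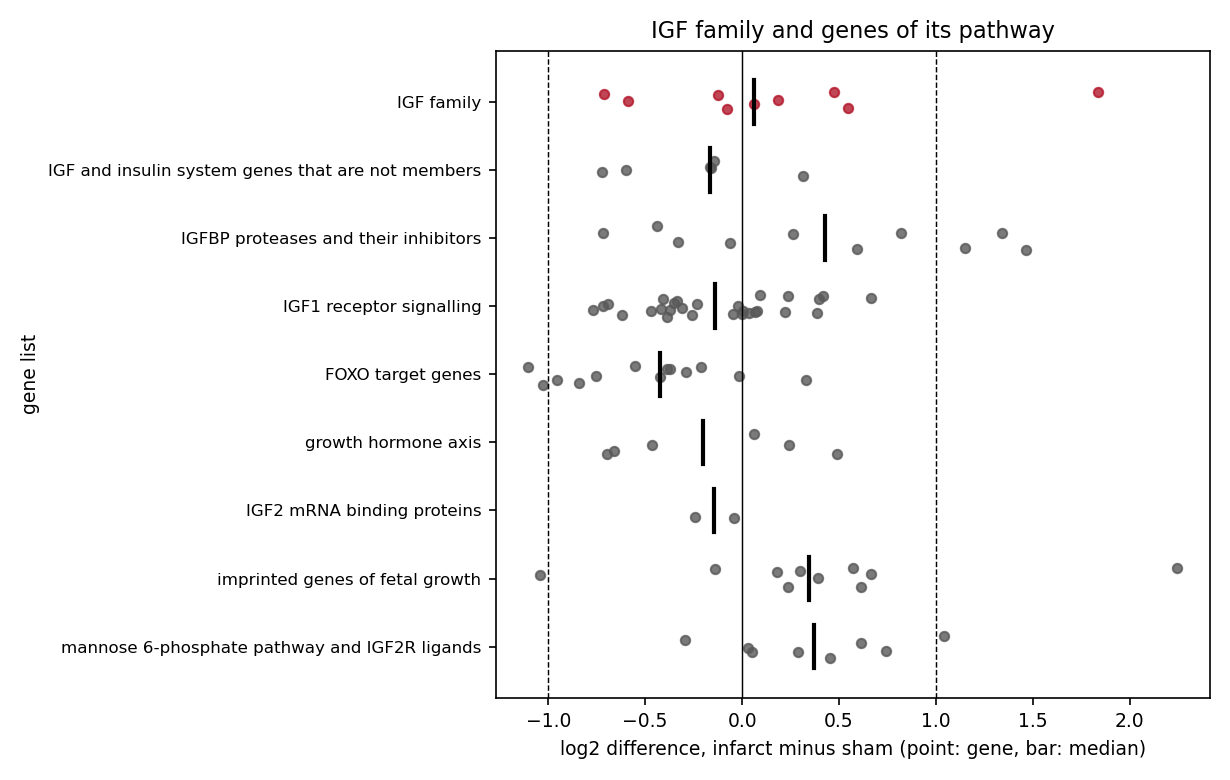
Log2 difference (infarct minus sham) of each bright gene of the IGF family (red) and of lists of related genes (grey), with the median of each list as a black bar and dashed lines at 2-fold. The family (median 0.060) spans from -0.71 to 1.84. FOXO target genes have the lowest median (-0.42) and genes listed for IGFBP proteases and their inhibitors, with Prss23 counted, have the highest (0.43). Without Prss23 the middle gene of that list is Ctsd (0.26), which is under the median of the mannose 6-phosphate list (0.37).

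Markers of several cell types are set beside members of the family that lay on the same side of 0. With 1 array per group, a shared side of 0 measures no likeness, and Igf1 stood at 0.0029 with housekeeping genes as zero. As deposited, 3.73% of all genes were higher and 1.26% lower by 2-fold or more. Of the 11961 genes, 151 were higher by as much with housekeeping genes as zero, and 962 with hybridisation controls. Beside Igf1, all 12 bright markers of macrophages and monocytes were higher in infarct hearts (8 with housekeeping genes as zero), with a median of 0.58 and a mean level of 9.80 in sham hearts and 10.5 in infarct hearts. Those past 2-fold were Cd68 (1.24), Itgam (1.22), Ccr2 (1.16) and Fcgr1 (1.12), and only Timd4, a marker of resident macrophages, was dim. Relative to the housekeeping genes these 4 stood between 0.65 and 0.77, and 0 markers of the list passed 2-fold. All 5 bright neutrophil markers were higher (4 with that zero), with S100a8 (1.72), S100a9 (1.54) and Csf3r (1.11) past 2-fold and Mmp8 dim. One of the 5, Cxcr2, was dim in sham hearts and passed the filter only through the infarct array. With housekeeping genes as zero, S100a8 and S100a9 stayed past 2-fold. Beside Igfbp3, all 9 markers of activated fibroblasts and myofibroblasts were higher (8 with that zero), with a median of 1.16 and mean levels of 10.9 and 12.0, and Igfbp3 exceeded each of them except Tnc (2.43). Next in that list were Cilp (1.31), Postn (1.28) and Cthrc1 (1.20), and only Tnc stayed past 2-fold with that zero. The 6 markers of dividing cells were all past 2-fold, with a median of 2.14, and remained so with either zero. Of these, Mki67 stood at 2.28, while Bub1 and Aurkb were dim in sham hearts and passed the filter only through the infarct array, so that their differences are uncertain. The count of 6 and the median include both. Endothelial markers had a median of 0.22, with 7 of 9 above 0 (1 with housekeeping genes as zero).

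Beside Igfbp5 and Igfbp6, 6 of 7 markers of epicardium and mesothelium were lower in infarct hearts (5 with hybridisation controls as zero), with a median of -0.63 and mean levels of 8.06 in sham hearts and 7.57 in infarct hearts. The exception was Aldh1a2 at 1.37 (0.90 relative to the housekeeping genes), and the lowest were Upk3b (-1.33) and Lrrn4 (-1.13, no longer past 2-fold with hybridisation controls as zero). Mural cell markers had a median of -0.10, with 5 of 9 below 0, and resting fibroblast markers one of -0.12, with 7 of 10 below 0, each with members in both directions. Mural markers ran from -0.93 (Abcc9) to 0.51 (Des), and of the resting fibroblast markers Scara5 (-1.67), Mfap5 (1.32) and Col15a1 (1.10) passed 2-fold (of these, with housekeeping genes as zero, only Scara5 did). With hybridisation controls as zero, 4 of 9 and 4 of 10 lay below 0. Of 8 cardiomyocyte markers 7 lay below 0 by their brightest probe sets, which read near the top of the scale, the lowest being Ryr2 (-0.39). Dimmer probe sets of the same genes gave lower values, down to -0.67 for Myh6, -0.66 for Ryr2 and -0.60 for Tnnt2. With hybridisation controls as zero, 6 of the 8 lay above 0. Of the liver markers, Alb and Apoa1 were dim on both arrays, Cyp2e1 stood at -1.18 and Ttr at 0.11. Of adipocyte markers, Cidec and Lep were dim, Retn stood at -0.14, and Adipoq had 7.43 in sham hearts and was dim in infarct hearts (5.91). Only 3 of 7 lymphocyte markers and 1 of 3 red blood cell markers were bright enough, none of them above 0. The part of any of these cell types in the values of the family was not tested.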

How the data were processed

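Hearts were frozen by the authors after sham operation or infarction, total RNA was extracted with ISOGEN and an RNeasy kit, pools of 3 hearts were made, and labelled cRNA of each pool was put on 1 GeneChip Mouse Genome array. The values deposited by the authors are RMA values on the log2 scale (background correction, normalization between the arrays and a summary per probe set). The software version is not given in the sources used here. Such normalization hides a difference in total mRNA and can compress bright probe sets.

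Of the probe sets, 34945 had 1 gene symbol, 932 several and 9160 none, apart from 64 control probe sets. Those with 1 symbol were named through the array annotation, and 34741 matched RefSeq genes of GRCm38.p6 by Entrez identifier. Genes were represented by their brightest probe set and compared where it reached the array median on 1 array. A log2 difference of 1 was counted as 2-fold. The alternative settings were 6 scalings, 3 choices of probe set, 2 filters, thresholds of 0.5 and 1.4 (the threshold of the study), counts of probe sets and the mean. The controls were 18 hybridisation and 24 poly-A probe sets, and the loess span was 0.4. With 1 array per group no p-value was computed, and precision is limited by the number of arrays. The members, the 13 pathway lists and the 13 marker lists were chosen with earlier results of these data known. Of each list, members past 2-fold, the highest and the lowest were to be named (at most 4 past 2-fold), and genes named beside these were chosen for their role. Procedures were tested on simulated data. Python 3.11.15, numpy 2.4.6, pandas 2.3.3, statsmodels 0.14.6 and matplotlib 3.10.9 were used.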

Additional observations from a re-analysis of the deposited data

How the results depend on the processing

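The count of 1 member higher by 2-fold or more was the same under all 6 scalings, all 3 choices of probe set and both filters, and at a threshold of 1.4. It was 2 at a threshold of 0.5, and 2 when probe sets were counted, since both belong to Igfbp3. The count of members lower by as much was 0, except for 2 (Igfbp5 and Igfbp6) after centring on the housekeeping genes and 2 at a threshold of 0.5. The median of the members moved from 0.060 to -0.41 and 0.38 after centring on the housekeeping genes and on the hybridisation controls, by construction of these settings, and by less than the SD between probe sets under the others. Of the 99 values of single members under the alternatives, 76 moved by less than that SD (0.23), and Igfbp3 stayed past 2-fold in all of them. Much of this count was fixed by construction and measures no robustness. The filters do not alter the value of a member, and centring moves all members by 1 constant. That constant lay under the SD for the array median (0.013) and the poly-A controls (-0.057). It lay over the SD for the housekeeping genes and the hybridisation controls. Igfbp5 stood at -0.35 as the mean of its probe sets and at -0.12 without the probe set that can bind several transcripts. Over all genes, 446 passed 2-fold upwards and 151 downwards, and these numbers became 151 and 949 after centring on the housekeeping genes and 962 and 40 after centring on the hybridisation controls. With no second pool per group, no sample could be left out, and the differences of dim probe sets, such as that of Igfbp2, carry little signal.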
